A study of Oryza sativa Japonica Group with 6 samples.

Results

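The 53 rice genes described here carry the names of families that split, carry, phosphorylate or signal sucrose and its products. They were taken by name from the 17905 genes that have a probe set of their own on the array: every gene with a symbol or synonym of the SUS, SWEET, SUT, CIN, NIN, MST, SPS, TPP, TPS, HXK or FRK family followed by a number, leading Os ignored. No TPS gene (trehalose phosphate synthase) was found under this rule, so the trehalose branch holds TPP genes only. The 53 genes have 62 probe sets, and each gene was read on its probe set with the highest mean. By role they divide into 13 genes of sucrose cleavage, 18 of sugar transport, 8 of hexose phosphorylation, 9 of the trehalose branch and 5 with the SPS name. Of the 53 genes, 3 share only the name: LOC4330237, written here as TPPII, is known as a tripeptidyl peptidase, and SPS1 (LOC4341844) and SPS2 (LOC9267741) are known as solanesyl diphosphate synthases.

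Affymetrix rice arrays were hybridized with RNA from developing seeds of Oryza sativa Japonica Group, to ask how fertilizing again at heading changes expression in the seed. The additional NH4Cl group (3 arrays) came from containers given 400 mg of ammonium chloride on the soil surface at heading, with seeds labelled 15 days after flowering, and the control group (3 arrays) came from containers without it, at a day not given in the sources used here. All plants shared a plant incubator, fertilizer at planting and a second dose 37 days after germination, and seeds were taken from 6 plants. The labels call the arrays biological replicates without tying them to plants, and the extraction text speaks of pooled seedlings while the tissue label says developing seed. P-values therefore measure only the spread between these arrays, which may be partly technical.

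Sucrose reaches the developing grain through the phloem. It is carried across membranes by SWEET facilitators, which let sugars pass down a gradient, and by SUT proton symporters. In the cell wall it is split by cell wall invertases (CIN), and inside cells by neutral invertases (NIN) or by sucrose synthase (SUS), which yields UDP-glucose, a precursor of starch and of wall glucans, and fructose. The hexoses are phosphorylated by hexokinases (HXK) and fructokinases (FRK), and sucrose-phosphate synthase (SPS) runs the route back to sucrose. Trehalose phosphate, a signal of sugar status that restrains the kinase SnRK1, is dephosphorylated to trehalose by TPP enzymes.

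Values were taken to be on a log2 scale and differed very little between arrays, whose medians over rice probe sets lay between 5.71845 and 5.71846 with additional NH4Cl and between 5.71852 and 5.7186 in control. Across arrays, rice probe sets had a median SD of 2.25e-06, and only 2.64% of them had an SD above 0.001. Differences of this size cannot be read as fold changes of RNA, so each is given in deposited units and, where useful, in multiples of its probe set's within-group SD. Not every marker name fixed for these tissues was found on a probe set of its own. The endosperm markers found were 8 genes with means from 12.64 to 13.51, 4 of them higher in the mean with additional NH4Cl. The groups did not overlap for RA5, at -7.91 within-group SDs, or for GLUA-1, GLUB-5 and prolamin, at 3.03, 4.28 and 2.37. Of all rice probe sets, 17.4% were without overlap. In deposited units RA5 stood at -3.97e-07 and GLUB-5 at 4.13e-07 (limma adjusted p of 0.584 and 0.587). The 4 embryo and aleurone genes found had means of 10.22 to 12.83, and 3 were higher. Green-tissue markers summed to 35.0541 to 35.0579 with additional NH4Cl and to 35.0522 to 35.0559 in control, with 4 of 4 higher in the mean. Among them the light-regulated gene LIR1 was higher by 7.95e-06 without overlap, 7.97 within-group SDs (limma adjusted p of 0.121), more SDs than any member. The part of these markers in the results below was not tested. In a principal component analysis of the scaled values, the first component (26.5% of the variance) held the additional NH4Cl arrays at 37.3 to 182 and the control arrays at -131 to -84.7. Additional NH4Cl replicate 3 stood apart from the other 5 arrays on the second component (24.0%), at 218 against -103 to 4.66, so the main counts are also given without it.

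No member passed the test after adjustment over all 57194 rice probe sets. With limma, 0 of 53 members were called higher and 0 lower at an adjusted p under 0.05, with adjusted p from 0.177 upward, while 0% of all rice probe sets were called higher and 0.00699% lower. Before adjustment, 10 of 53 members (18.9%) had p under 0.05, 2 higher (SWEET4 and TPP9) and 8 lower (SUT4, SUT2, SWEET11, SWEET15, TPP1, TPP7, SUS2 and SPS2), against 11.1% of all rice probe sets, 5.09% higher and 5.96% lower. Among the 42 members above the reporter level, a mean of 5.81 that 95% of the 64 reporter control probe sets did not exceed, the share was 23.8%, against 16.9% of all rice probe sets above that level. A test with unequal variances called 0 members after adjustment. Before adjustment it called 7 lower and 0 higher, with no share of all rice probe sets counted for that test. Without additional NH4Cl replicate 3, limma found 4 members higher and 9 lower at p under 0.05 before adjustment and 0 after it, against 5.3% and 6.19% of all rice probe sets before adjustment.

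In the mean, 22 members were higher with additional NH4Cl and 31 lower, where 50.4% of all rice probe sets were higher and 49.5% lower. The median member difference was -0.432 within-group SDs, and the median over all rice probe sets was 0.0101. The groups did not overlap for 13 members (24.5%), 10 of them lower and 3 higher, against 17.4% of all rice probe sets, 8.99% lower and 8.42% higher, while among probe sets above the reporter level the shares were 31.0% of 42 members and 22.6% of all. All 13 were above the reporter level. None of the 11 members at or below it reached an unadjusted limma p under 0.05. That p was reached by 11.1% of all rice probe sets and by 16.9% of those above the reporter level. The share of rice probe sets at or below that level was thus under 11.1%. It was not counted itself, and 11 members are few to set against it. These are bulk seed samples, so fewer cells of a type and less RNA per cell cannot be told apart.

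**Figure D1:**
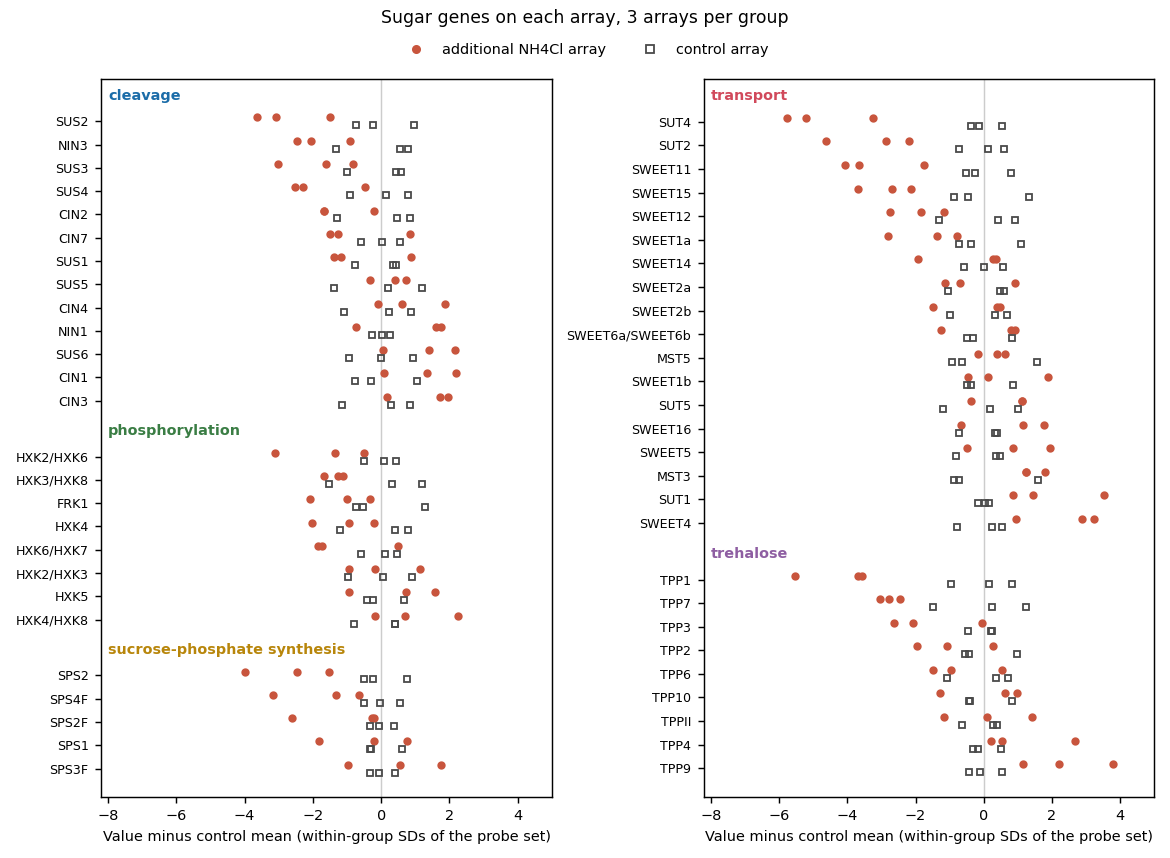
Each of the 53 members on each array, as the deposited value minus the control mean, divided by the within-group SD of its probe set. Filled circles are the 3 additional NH4Cl arrays and open squares the 3 control arrays, and genes are sorted by their difference within a branch. SUT4, SUT2, SWEET11, SWEET15, TPP1, TPP7, SUS2 and SPS2 have all 3 circles left of all squares, as do SWEET1a and SPS4F by less, and SWEET4, SUT1 and TPP9 have all circles to the right.

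Sucrose cleavage genes were lower for 7 of 13 members, with a median of -0.566 within-group SDs. SUS2, SUS3, SUS4 and the neutral invertase NIN3 were lower by more than 1.5 within-group SDs, and the other invertases lay on both sides. SUS2 (LOC4340386), a sucrose synthase, had values of 10.02534, 10.02559 and 10.02627 on the additional NH4Cl arrays and of 10.02733, 10.0266 and 10.02681 on the control arrays. The additional NH4Cl arrays were all below the control arrays, with replicate 3 nearest to them. The difference was -0.00118 (SE 0.000352, n = 3 per group; -2.74 within-group SDs), with a limma adjusted p of 0.335. SUS2 was the 1 cleavage gene of 13 (7.69%) at an unadjusted p under 0.05, against 11.1% of all rice probe sets. Its difference was -0.000547 with quantile normalization and -0.00106 with median centring.

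SUS3 (LOC4343910), the sucrose synthase known from rice endosperm, had the widest range of any member. Its values were 8.2152, 8.2642 and 8.2917 with additional NH4Cl, against 8.3393, 8.3347 and 8.2851 in control. Replicate 1 of additional NH4Cl was the lowest array, and control replicate 3 lay below additional NH4Cl replicate 3, so the groups overlapped. The difference of -0.0627 (SE 0.0283; -1.81 within-group SDs) was the largest of the members in deposited units and did not pass (limma adjusted p of 0.51). Its SD over the 6 arrays, 0.0463, ranked 38 among the 57194 rice probe sets. Leaving out an array in turn gave differences between -0.08 and -0.0418.

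The sucrose synthase SUS4 (LOC4332788), at a mean of 12.19, had deviations from the control mean of -7.6e-06, -3.62e-05 and -3.99e-05 with additional NH4Cl, against 1.26e-05, -1.47e-05 and 2.02e-06 in control. Its groups overlapped through additional NH4Cl replicate 1, and the difference of -2.79e-05 turned to 9.46e-05 after median centring and to 0 after quantile normalization. SUS1 (LOC4333062) stood at -0.000216, and its second probe set gave -0.000208. Additional NH4Cl replicate 3 lay above both of the other arrays of its group on SUS1, at 0.000331 from the control mean, and above all control arrays. SUS5 and SUS6, at means of 5.35 and 5.38, lay below the reporter level and had differences of 2.53e-08 and 2.12e-06.

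Cell wall invertases, which split sucrose outside the cell, had differences on both sides. CIN2 (LOC4335790), also named GIF1 and known in rice as a gene of grain filling, had deviations of -0.000437, -0.000437 and -5.72e-05 with additional NH4Cl, against 0.000118, 0.000216 and -0.000334 in control. Control replicate 3 lay among the additional NH4Cl arrays, and the difference of -0.00031 did not pass (limma adjusted p of 0.688). CIN1 stood at 0.000165 and CIN7 at -2.1e-07, while CIN3 at 5.77e-07 and CIN4 at 1.14e-06 lay below the reporter level. The neutral invertases NIN3 (LOC4329537) and NIN1 stood at -2.02e-05 and 2.94e-05, NIN3 turning to 0.000281 after quantile normalization.

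Sugar transporters were higher for 9 and lower for 9 of 18 members, with a median of -0.0305 within-group SDs. Of the 18, 5 reached an unadjusted p under 0.05: the SWEET facilitators SWEET11 and SWEET15 and the sucrose symporters SUT2 and SUT4 were lower, and SWEET4 was higher. These are 27.8% of the branch, against 11.1% of all rice probe sets, and none passed after adjustment. Above the reporter level they were 33.3% of 15 transporters, against 16.9% of all rice probe sets there. The groups did not overlap for 7 transporters (38.9%, against 17.4% of all rice probe sets), these 5 together with SUT1 (higher) and SWEET1a (lower). Above the reporter level the shares without overlap were 46.7% of 15 transporters and 22.6% of all rice probe sets.

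SWEET11 (LOC4346153), which moves sucrose toward the rice endosperm, was read at a mean of 12.37 on a probe set that can hybridize with several transcripts. Its deviations from the control mean were -6.63e-06, -1.54e-05 and -1.38e-05 with additional NH4Cl, against -9.83e-07, 2.98e-06 and -1.99e-06 in control. All 3 additional NH4Cl arrays were below the control arrays. The difference was -1.19e-05 (SE 3.08e-06, n = 3 per group; -3.16 within-group SDs; limma adjusted p of 0.285). Its difference was 0 under quantile normalization, which gives 0 by construction where a probe set holds the same rank on every array. Median centring, which adds the same amount to the difference of every probe set, gave 0.000111.

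SWEET15 (LOC4329464), which acts together with SWEET11 in rice seed filling, had values of 8.46773, 8.46907 and 8.46527 with additional NH4Cl, against 8.47321, 8.47762 and 8.47217 in control. The groups did not overlap, and control replicate 2 was the highest array. The difference was -0.00697 (SE 0.00201; -2.84 within-group SDs; limma adjusted p of 0.324), the largest of the transporters in deposited units. Quantile normalization gave -0.0073 and median centring -0.00685, and the difference lay between -0.00806 and -0.00533 with an array left out.

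SWEET4 (LOC4329093), a hexose facilitator needed for seed filling in rice, was the member of this family that lay higher with non-overlapping groups. Its deviations were 3.87e-06, 1.17e-05 and 1.31e-05 with additional NH4Cl, against -3.2e-06, 1.02e-06 and 2.19e-06 in control. Additional NH4Cl replicate 1 came closest to the control arrays. The difference of 9.54e-06 (SE 3.3e-06; 2.36 within-group SDs; limma adjusted p of 0.396) was 0 after quantile normalization.

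The other SWEET genes gave smaller gaps relative to their SDs. SWEET14 (LOC4350572), known in rice as a target of bacterial effectors, stood at -0.00014 on its main probe set and at -6.32e-05 on the second, and its additional NH4Cl replicate 1 at -0.000623 was its lowest array. Without that array its difference was 0.000102. SWEET1a (LOC4324848) stood at -0.000132 (-1.66 within-group SDs) with groups that did not overlap. Its second probe set, at a mean of 5.98 above the reporter level, went the other way by 5.77e-06 (1.72 within-group SDs). SWEET2a, SWEET2b and SWEET12 were lower, between -1.33e-05 and -1.6e-07, and SWEET1b, SWEET5, SWEET6a/SWEET6b and SWEET16 were higher, between 1.35e-06 and 8.14e-05. The second probe set of SWEET2b stood at 2.94e-06. SWEET12 lay below the reporter level.

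The sucrose-proton symporters lay in both directions. SUT4 (LOC4331221) had the largest difference of all members in within-group SDs and the smallest adjusted p. Its deviations from the control mean were -8.87e-05, -0.000143 and -0.000158 with additional NH4Cl, against 1.44e-05, -4.08e-06 and -1.04e-05 in control. The additional NH4Cl arrays were well below the control arrays, which lay close together. The difference was -0.00013 (SE 2.24e-05; -4.74 within-group SDs; limma adjusted p of 0.177), with adjusted p between 0.115 and 0.897 over the alternatives. Median centring gave -7.38e-06 and quantile normalization 9.2e-05, so its direction turns with the scaling.

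SUT2 (LOC9266530), a sucrose carrier of the vacuole membrane in rice, had deviations of -0.000178, -0.000111 and -8.43e-05 with additional NH4Cl, against 4.86e-06, 2.26e-05 and -2.75e-05 in control. Its groups did not overlap, and the difference was -0.000125 (SE 3.15e-05; -3.23 within-group SDs; limma adjusted p of 0.276). Quantile normalization gave -7.36e-05 and median centring -1.98e-06, with limma adjusted p of 0.863 and 0.949. Its second probe set, near the reporter level at a mean of 5.84, gave 2.07e-08. SUT1 (LOC4331775), the symporter known from the phloem and the outer layers of the rice grain, lay on the other side, with deviations of 5.36e-05, 3.15e-05 and 0.00013 with additional NH4Cl, against 8.04e-07, -6.51e-06 and 5.71e-06 in control. Its difference of 7.17e-05 (SE 3.01e-05; 1.95 within-group SDs; limma adjusted p of 0.478) was -0.000206 after quantile normalization. SUT1 was named after its values were seen, because its groups do not overlap. SUT5, below the reporter level, stood at 4.19e-07, and the monosaccharide carriers MST3 and MST5 at 8.69e-05 and 1.13e-07.

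**Figure D2:**
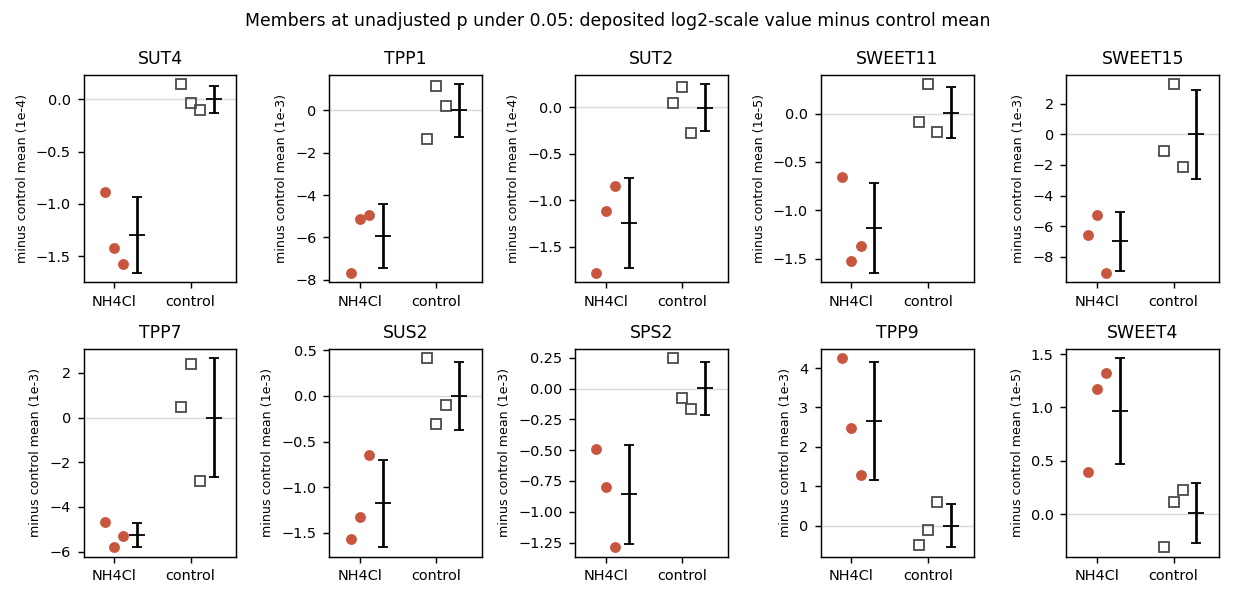
The 10 members at an unadjusted p under 0.05, sorted by p, as the deposited log2-scale value minus the control mean on each array, with the scale of each panel in its axis label. Filled circles are additional NH4Cl arrays and open squares control arrays, and bars show the mean and SD of the 3 arrays. In every panel the 3 circles lie on one side of the 3 squares, above them for TPP9 and SWEET4 only, and the scales run from 1e-05 for SWEET11 and SWEET4 to 1e-03 for SWEET15, TPP1, TPP7, TPP9, SUS2 and SPS2.

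Genes of hexose phosphorylation were lower for 6 of 8 members, with a median of -1.05 within-group SDs. None reached an unadjusted p under 0.05, against 11.1% of all rice probe sets. In none of the 8 were the groups apart, against 17.4% of all rice probe sets. Among rice probe sets above the reporter level these shares were 16.9% and 22.6%. The gene table gives some hexokinases under 2 numbers, and such genes are written with both. HXK2/HXK6 (LOC4326547), on a probe set that can hybridize with several transcripts, had deviations of -0.00242, -0.00105 and -0.000389 with additional NH4Cl, against 0.000341, 6.06e-05 and -0.000401 in control. The groups met at additional NH4Cl replicate 3 and control replicate 3, and the difference was -0.00128 (SE 0.000635; limma adjusted p of 0.552).

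HXK4 (LOC4342654) had deviations of -0.00189, -0.000878 and -0.000193 with additional NH4Cl, against 0.000389, 0.000743 and -0.00113 in control. As with SUS3, additional NH4Cl replicate 1 was its lowest array and control replicate 3 was the lowest of its group. The fructokinase FRK1 (LOC4324962) stood at -0.000535, with control replicate 3 its highest array. HXK3/HXK8 (LOC4326516) and HXK6/HXK7 (LOC4338010) stood at -5.81e-06 and -2.65e-06, both positive after median centring, and HXK3/HXK8 lay below the reporter level. HXK5, a glucose sensor in rice, stood at 6.5e-07, HXK4/HXK8 at 4.6e-05 and HXK2/HXK3 at -7.47e-08. The second probe set of HXK2/HXK3 stood at 3.48e-06.

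The trehalose branch held the members with the widest spreads in deposited units after SUS3 and SWEET15. Of its 9 members, 4 were higher and 5 lower, and without TPPII 3 of 8 were higher. An SD over the 6 arrays above 0.001 was found for 4 of 9 members (44.4%), against 11.3% of all members and 2.64% of all rice probe sets. Above the reporter level it was 57.1% of the branch, against 5.79% of all rice probe sets there. The 3 at an unadjusted p under 0.05 were TPP1 and TPP7, lower, and TPP9, higher. In each of these the groups did not overlap, and 3 of 9 is 33.3%, against 11.1% of all rice probe sets at that p and 17.4% without overlap. Above the reporter level it was 42.9% of 7 members, against 16.9% of all rice probe sets at that p and 22.6% without overlap.

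TPP1 (LOC4330221), a trehalose phosphate phosphatase linked in rice to tolerance of cold and salt, had values of 5.98588, 5.98842 and 5.9886 with additional NH4Cl, against 5.99222, 5.9947 and 5.99377 in control. The gap between the groups was wider than the range within either. The difference was -0.00593 (SE 0.00114, n = 3 per group; -4.26 within-group SDs; limma adjusted p of 0.201). It was -0.00607 after quantile normalization, with a limma adjusted p of 0.0515, and -0.0058 after median centring, with 0.00759. Quantile normalization called 2082 rice probe sets higher and 1997 lower, and median centring 50499 and 855. The 0.00759 was shared by members such as CIN3, whose deposited difference was 5.77e-07. Its adjusted p was at most 0.511 over all alternatives, and its mean of 5.99 lay just above the reporter level.

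TPP7 (LOC4346885), known in rice for germination under low oxygen, had values of 6.6329, 6.6318 and 6.63231 with additional NH4Cl, against 6.63808, 6.63997 and 6.63473 in control. The additional NH4Cl arrays lay close together below all control arrays, of which replicate 3 was the nearest. The difference was -0.00526 (SE 0.00156; -2.75 within-group SDs; limma adjusted p of 0.334). This probe set can hybridize with several transcripts, and the second probe set of TPP7, at a mean of 5.34 below the reporter level, gave 3.74e-07.

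TPP9 (LOC4332996) lay in the other direction, with values of 7.126, 7.12422 and 7.12304 with additional NH4Cl, against 7.12128, 7.12164 and 7.12235 in control. The lowest additional NH4Cl array, replicate 3, was above the highest control array, replicate 3. The difference was 0.00266 (SE 0.000919; 2.37 within-group SDs; limma adjusted p of 0.394), and it stayed positive after quantile normalization (0.00244) and median centring (0.00279). TPP2 (LOC4349333) had a difference of -0.00203 on groups that overlapped, with additional NH4Cl replicate 1 above the control mean by 0.000619 and replicate 3 at -0.00431. TPP3 (LOC4343959) and TPP4 (LOC4330753) stood at -0.00106 and 0.000157, and TPP6 and TPP10, below the reporter level, at -1.97e-06 and 3.66e-07. The peptidase TPPII stood at 2.99e-05.

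Of the 5 genes with the SPS name, 4 were lower, but the one at an unadjusted p under 0.05 was the solanesyl diphosphate synthase SPS2, which makes the side chain of quinones. It had deviations of -0.000494, -0.000799 and -0.00129 with additional NH4Cl, against 0.000245, -7.95e-05 and -0.000165 in control, a difference of -0.000861 (SE 0.000263; limma adjusted p of 0.344). Among the 3 sucrose-phosphate synthases, SPS4F (LOC4345220) stood at -1.67e-05 with groups that did not overlap, SPS3F (LOC4341642) at 7.53e-06 and SPS2F (LOC4328527), below the reporter level, at -5.45e-07. For SPS4F, quantile normalization gave -0.000571 and median centring 0.000106. SPS1, the other solanesyl diphosphate synthase, stood at -4.7e-07.

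**Figure D3:**
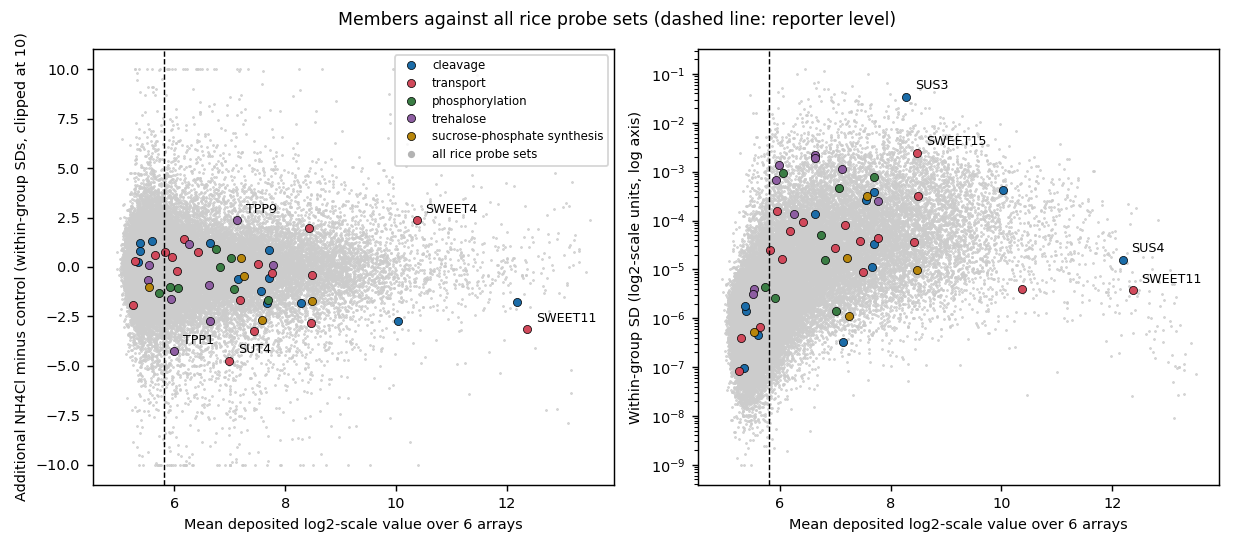
Left, the difference additional NH4Cl minus control in within-group SDs against the mean deposited log2-scale value over 6 arrays, and right, the within-group SD on a log axis against the same mean, for the 53 members (coloured by branch) and all 57194 rice probe sets (grey). The dashed line marks the reporter level of 5.81. SUS3 lies near the upper edge of the spreads at its level, SWEET11 and SUS4 have small spreads at means above 12, and SUT4 and TPP1 have the most negative differences of the members.

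Set side by side, the branch medians on each array did not separate the groups in the cleavage branch or the transport branch. In within-group SDs from the control mean, the cleavage median was -0.48, 0.183 and -0.221 on the additional NH4Cl arrays, against 0.0271, 0.432 and -0.233 on the control arrays. The transport median was -0.582, 0.245 and -0.0969, against -0.285, 0.33 and -0.441. For phosphorylation it was -0.643, -1.1 and -0.354, against 0.429, 0.0692 and -0.55, with control replicate 3 among the additional NH4Cl arrays. The trehalose median was -0.957, -1.08 and -0.0613, against 0.247, -0.103 and 0.15, so additional NH4Cl replicate 3 lay above control replicate 2. The 5 SPS-named genes gave -1.53, -0.272 and -0.215, against 0.393, -0.0715 and -0.289. Every branch thus overlapped between the groups, and no test between branches was made.

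The arrays also differed in how often they were a member's extreme value. Shares of rice probe sets given beside these counts cover only those whose 6 values all differ. Additional NH4Cl replicate 1 was the lowest of the 6 arrays for 16 of 53 members (30.2%), against 19.9% of these rice probe sets. Additional NH4Cl replicate 3 was the lowest for 13 (24.5%) and the highest for 13 (24.5%), against 18.2% and 20.3% of these rice probe sets. Control replicate 3 was the lowest for 5 members (9.43%), against 16.5%. In 40 of 53 members the sign of the difference held with each array left out in turn. That share was not counted over all rice probe sets, so it does not set the members apart from them.

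The difference had the opposite sign after quantile normalization for 14 of 53 members, after median centring for 14 and after either for 23. Changes of sign were not counted over all rice probe sets. The median difference moved up by 0.000123 under median centring, so members lower by less than this turn positive by construction, which holds for all 14. Median centring left 36 of 53 members above 0 and 17 below, and called 32 members higher and 6 lower, where it called 50499 probe sets higher and 855 lower over the array. The 6 lower ones were SUS2, SUS3, SWEET15, TPP1, TPP7 and SPS2. After quantile normalization 18 members were higher, 27 lower and 8 had no difference left, and 0 passed. A probe set with the same rank on every array has no difference left by construction. The direction was the same as deposited under both scalings for 26 of 53 members, 15 lower and 11 higher, a count that partly restates how large the deposited differences are. By branch it was 5 of 13 for cleavage, 6 of 18 for transport, 5 of 8 for phosphorylation, 8 of 9 for trehalose and 2 of 5 for the SPS-named genes.

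**Figure D4:**
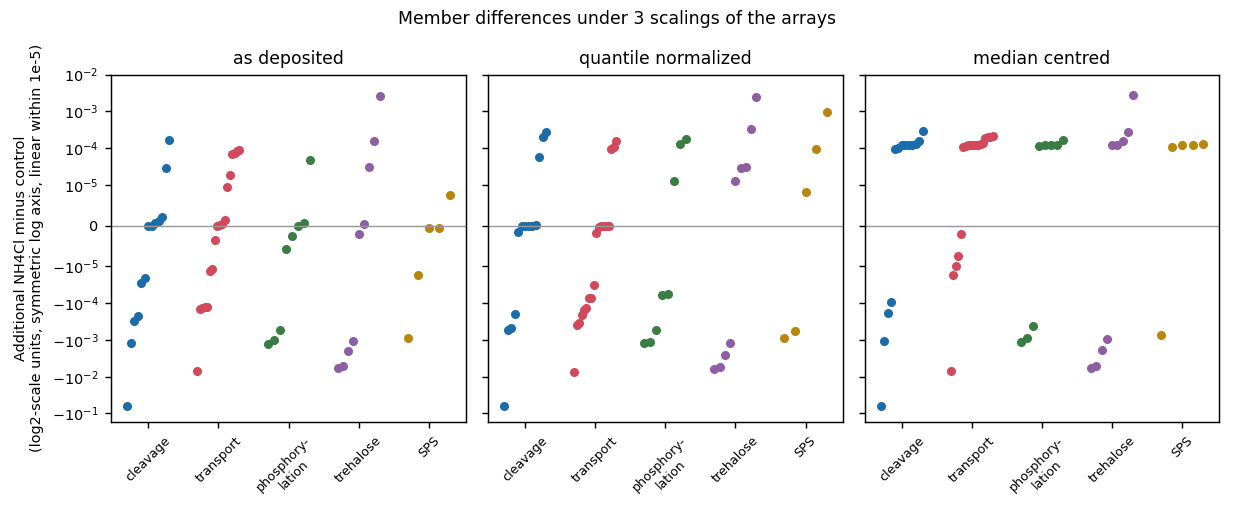
The difference additional NH4Cl minus control of each member, by branch, as deposited, after quantile normalization and after median centring, in deposited log2-scale units on a symmetric log axis that is linear within 1e-05. Each point is a gene, sorted within its branch. Median centring moves members with small differences to about 0.000123, while SUS3 stays near -0.063 and SWEET15, TPP1 and TPP7 stay between -0.0073 and -0.00514.

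Other genes of these pathways were few under the names searched. The search for vacuolar invertases, sucrose-phosphate phosphatases, UDP-glucose pyrophosphorylases, trehalase, phosphoglucomutases and isomerases, further monosaccharide carriers, SnRK1 kinases and ADP-glucose pyrophosphorylase subunits found 8 genes, 2 higher and 6 lower, of which 0 passed limma after adjustment and 3 reached an unadjusted p under 0.05, against 11.1% of all rice probe sets. All 8 had means above the reporter level, where 16.9% of all rice probe sets reached that p. The median of the 8 was -0.918 within-group SDs. The 3 were AGPS2, an ADP-glucose pyrophosphorylase subunit of starch synthesis, and OSK1, a SnRK1 kinase, both lower, at -2.52e-05 and -7.01e-06. OSK24, another SnRK1 kinase, was higher at 0.000242, on a probe set that can hybridize with several transcripts. Their limma adjusted p were 0.209, 0.302 and 0.394, and OSK3 stood at 0.00183. Of the 4 genes named SPP, 2 also carry the synonym IMPAS, which belongs to the signal peptide peptidases. These 2 share only the name, stood at -2.69e-05 and -8.24e-05, and are included in the 8 genes, the 6 lower and the median. Neither reached an unadjusted p under 0.05. The 2 sucrose-phosphate phosphatases, LOC4325448 and LOC4328274, stood at -7.84e-06 and -1.07e-05.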

How the data were processed

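The deposited table holds 1 value on a log2 scale for each probe set on each of 6 arrays, with up to 9 decimals; how the authors summarized and normalized them, and in which log base, is not given in the labels used here, and log2 was read from the range of the values. Biotinylated cRNA was hybridized per the labels' protocols. The 187 control probe sets were left out, and the 57194 rice probe sets were fitted by limma 3.58.1 under R 4.3.3, with lmFit followed by eBayes, without a trend, block or filter. Tests were two-sided, with Benjamini-Hochberg adjustment over all of them at 0.05. Printed standard errors are unmoderated. The number of arrays limits the precision.

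Gene names came from GEO's platform annotation, updated with the gene list of assembly ASM3414082v1. Of the rice probe sets, 22436 had 1 gene, 95 several and 34663 none here. Names such as SWEET1a, with a letter after the number, were counted as members, and all 53 member gene IDs were found in the gene table. Coordinates and sequences are not given, since the build behind the probe sets is unknown here and no sequence table was used. A difference under 5e-10 counted as none. The members, branches and pathway list were chosen with earlier results of these data known. Named in each branch were up to 5 members with the largest difference in within-group SDs and up to 3 with the largest in deposited units, others where stated or to account for every member. The fit was tested on simulated data. The alternatives tried were a block for replicate number, a trended and robust eBayes, quantile normalization, median centring, filters on dim and cross-hybridizing probe sets, unequal variances, means over probe sets and each array left out. Leaving out the 3 genes that share only a family name was chosen after seeing the data.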

Additional observations from a re-analysis of the deposited data

How the results depend on the processing

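Over all rice probe sets, limma made 0 higher and 4 lower calls. The lower calls were 2 with the replicate number as a block, 2 with trend and robust, 0 with unequal variances and between 0 and 1 with an array left out, where the higher calls also ran from 0 to 1. Quantile normalization gave 2082 higher and 1997 lower calls, median centring 50499 and 855, the filter on dim probe sets 12 and 20, and leaving out cross-hybridizing ones 1 and 4.

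Members past the adjusted threshold numbered 0 under every alternative except median centring, with 32 higher and 6 lower. Before adjustment, the 2 higher members at p under 0.05 became 1 with trend and robust, 0 with unequal variances and 34 after median centring, and between 0 and 4 with an array left out (4 without additional NH4Cl replicate 3, 0 without control replicate 1 or 2). The 8 lower became 3 after quantile normalization, and between 6 and 10 with an array left out. Same-numbered arrays of the groups correlated at -0.0616, 0.0449 and -0.0775 in their deviations from the group means. Not every array correlated best with its own number. The numbers thus gave no sign of pairing the arrays, which correlations this small over so few arrays cannot exclude. With the replicate block 0 members passed after adjustment, and before it 2 were higher and 6 lower. Shares of all rice probe sets before adjustment were counted only as deposited and without additional NH4Cl replicate 3.

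The share of higher members in the cleavage branch, 46.2% as deposited, was 22.2% above the reporter level. In the transport branch, 50% as deposited, it was 16.7% after quantile normalization. For phosphorylation, 25% as deposited, it was 62.5% after median centring, 16.7% without cross-hybridizing probe sets and 12.5% to 37.5% with an array left out. For trehalose, 44.4% as deposited, it ran from 22.2% to 44.4% with an array left out. For the SPS-named genes, 20% as deposited, it was 60% after quantile normalization, 80% after median centring, 33.3% without the 3 genes that share only a name and 0% to 40% with an array left out.

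Median differences in within-group SDs after median centring were 2.59 for cleavage, 3.03 for transport, 3.22 for phosphorylation, 0.64 for trehalose and 3.77 for the SPS-named genes. They were positive by construction of the shift, and the median over all rice probe sets was 3.76. After quantile normalization the branch medians were 0 for cleavage, -0.514 for transport, 0.252 for trehalose and 0.308 for the SPS-named genes. These lay below the median over all rice probe sets under that scaling, 0.577. The cleavage median was -1.2 above the reporter level and ran from -0.858 to -0.156 with an array left out. The transport median, -0.0305 as deposited, was 0.15 without cross-hybridizing probe sets, 0.0636 over means of probe sets and -0.136 to 0.356 with an array left out, above 0 without additional NH4Cl replicate 1 or control replicate 2. The trehalose median was 0.105 without cross-hybridizing probe sets. Under that filter TPP6 drops out and TPP7 is read on its second probe set, at 0.752 within-group SDs, while the transport branch loses SWEET11. The cause was not tested for the other moves.

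Of the 28 genes named by the rule, 8 turned positive after median centring: NIN3 (0.000102), SUS4 (9.46e-05), SWEET11 (0.000111), HXK3/HXK8 (0.000117), HXK6/HXK7 (0.00012), SPS1 (0.000122), SPS2F (0.000122) and SPS4F (0.000106). After quantile normalization 5 turned positive: NIN3 (0.000281), SUT4 (9.2e-05), HXK3/HXK8 (1.3e-05), SPS1 (0.000955) and SPS2F (8.13e-06). TPP7 on its other probe set stood at 3.74e-07. With an array left out, SWEET14 ran from -0.00027 to 0.000102, SPS1 from -1.11e-06 to 2.92e-07 and SPS3F from -3.79e-06 to 1.98e-05. No named gene turned under the block, trend and robust, unequal variances, the filter on dim probe sets or the mean over probe sets.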
